A study of Mus musculus with 6 samples.

Results

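The genes described are 10 matrix metalloproteases and their inhibitors in endothelial cells of the mouse, which form the inner lining of vessels. They were chosen by name, and all 10 were found among 54532 genes of the count table. They comprise 3 tissue inhibitors of metalloproteinases (Timp1, Timp2 and Timp3) and 7 proteases: the matrix metalloproteinases Mmp2, Mmp14 and Mmp15, the thrombospondin-motif protease Adamts1, and the surface sheddases Adam10, Adam15 and Adam17. The cells grew in complete endothelial medium with serum and received lentivirus for 72 h, either with an empty vector (control, 3 libraries) or to overexpress RBPMS, an RNA-binding protein (RBPMS, 3 libraries). The sources used here do not give mouse strain, vascular bed or the promoter of the vector, and both groups carry lentivirus. They also do not say whether the replicates were separate cultures, so every p-value measures spread between libraries that may be no more than technical.

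Matrix metalloproteases cut the proteins around and on cells with a zinc ion held in the active site. MMP2 degrades basement-membrane collagen and is activated at the cell surface by membrane-bound MMP14, with TIMP2 as a bridge at low dose and a blocker at high dose. MMP15 is a further membrane-bound form. ADAMTS1 is secreted and cuts proteoglycans such as versican, while ADAM10 and ADAM17 release the outer parts of receptors, ligands and adhesion proteins. TIMPs plug the active site. TIMP3 differs from the other TIMPs in that it stays bound to the matrix and also blocks ADAM17 and several ADAMTS proteases.

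The coding sequences below are shown because they encode the parts through which these proteins act on each other. Each of the 7 protease lines covers the zinc-binding motif, with the codons of its 3 histidines, which hold the zinc, in capitals. All stretches are 33 bases long and read 5′ to 3′ on the coding strand, from GENCODE M21 transcripts on GRCm38.
Mmp2: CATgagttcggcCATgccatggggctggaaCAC
Mmp14: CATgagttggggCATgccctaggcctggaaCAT
Mmp15: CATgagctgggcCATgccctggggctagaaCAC
Adamts1: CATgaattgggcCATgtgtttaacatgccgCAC
Adam10: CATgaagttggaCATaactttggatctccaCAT
Adam15: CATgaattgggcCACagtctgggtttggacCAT
Adam17: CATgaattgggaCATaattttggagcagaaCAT

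The Mmp2 stretch lies in exon 8 (chr8:92839279-92839311, plus strand), that of Mmp14 in exon 5 (chr14:54437627-54437659, plus strand) and that of Mmp15 in exon 5 (chr8:95368585-95368617, plus strand). Adam15 carries it in exon 11 (chr3:89344780-89344812, minus strand) and Adam17 in exon 12 (chr12:21336732-21336764, minus strand). In Adamts1 (chr16:85799191-85799545, minus strand) and Adam10 (chr9:70754296-70761585, plus strand) the stretch is split over 2 exons. Of the 33 bases 13 were identical in all 7 genes and 25 in the 3 Mmp genes. Among the proteases that are not Mmp genes, Adam10 and Adam17 shared 26 bases, and Adamts1 shared 19 with each of Adam10, Adam15 and Adam17.

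The matching inhibitor stretches cover 36 bases around the start of the mature TIMP proteins. The capitals mark the codons of the first cysteines of the mature protein, the end that reaches the protease's zinc.
Timp1: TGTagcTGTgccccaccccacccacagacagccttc
Timp2: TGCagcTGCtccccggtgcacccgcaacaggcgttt
Timp3: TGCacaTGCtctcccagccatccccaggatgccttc

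These stretches lie in exon 2 of Timp1 (chrX:20871111-20871146, plus strand), exon 1 of Timp2 (chr11:118354977-118355012, minus strand) and exon 1 of Timp3 (chr10:86300923-86300958, plus strand). The 3 genes shared 18 of the 36 bases, and each pair of them shared 22.

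Total counts ran from 15779567 to 23076124 per library. Levels are given as CPM, a counts-per-million scale with library sizes adjusted by the trimmed mean of M-values (TMM). Rbpms itself had 57.1, 56.8 and 55.2 CPM in the controls and 131, 148 and 133 CPM in the RBPMS libraries, so that the groups did not overlap (p = 0.1, two-sided exact permutation test, the smallest p that 3 against 3 allows). Its log2 fold change was 1.28 ± 0.10 with all 6 libraries (edgeR adjusted p = 0.061) and 1.27 ± 0.059 without control replicate 3 (adjusted p = 3.6e-11). Control replicate 3 stood apart from the other libraries. Its log2 CPM correlated with theirs at 0.952 to 0.958 across genes, against 0.990 to 0.994 among the other 5, and it held more of short and less of long genes. The fold changes and list medians below are therefore given with and without it. Endothelial markers summed to 17305 to 21982 CPM, with all 14 of 14 detected. Without control replicate 3, 2 of these rose and 3 fell, against 3.81% and 3.43% of all tested genes. Fibroblast and mural markers summed to 5.95 to 9.37 CPM in controls and 6.70 to 7.51 CPM with RBPMS, with Rgs5 and Kcnj8 at 0 and Acta2 at no more than 0.063 CPM. Leukocyte markers summed to 42.6 to 47.2 CPM in controls and 54.9 to 60.0 CPM with RBPMS, of which Cd68 made up nearly all. Of 2 tested leukocyte markers 1 rose without control replicate 3. Cd3e and Adgre1 were at 0 and Ptprc reached 0.16 CPM. Epithelial and mesothelial markers summed to 21.4 to 26.1 CPM in controls and 17.0 to 21.2 CPM with RBPMS, and cardiomyocyte markers to 0.82 to 3.70 CPM and 1.75 to 2.51 CPM. The lymphatic endothelial markers were nearly all Lyve1, which had 479.6, 433 and 360.2 CPM in the controls and 379, 364 and 392 CPM with RBPMS and fell without control replicate 3, while Pdpn was at 0 and Prox1 reached 0.055 CPM. The part of these marker differences in the results below was not tested.

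Among these genes 2 inhibitors rose and 2 matrix metalloproteinases fell when control replicate 3 was left out. Timp3 was 34.0% and Timp2 14.7% higher with RBPMS, Mmp2 fell by 34.7% and Mmp14 fell by 21.4%, while Timp1, Mmp15, Adamts1, Adam10, Adam15 and Adam17 did not pass the test. With 2 controls against 3 RBPMS libraries, edgeR's quasi-likelihood test at an adjusted p under 0.05 thus called 4 of 10, against 7.24% of all 14123 tested genes: 2 of 10 higher, against 3.81%, and 2 of 10 lower, against 3.43%. With all 6 libraries the same test called 0 of 10, against 0% of 13898 tested genes, with 2 of 10 (Mmp2 and Mmp14) and 7.56% of all genes at an unadjusted p under 0.05. DESeq2 and limma-voom also called 0 of 10 with all 6 libraries. All 10 genes passed the filter on low counts in both fits. They were chosen with earlier results of these data known, so the shares over all genes are no test of an excess among them. The median log2 fold change of the 10 was -0.05 without control replicate 3, against -0.0025 over all tested genes, and -0.0037 with all 6 libraries, against -0.0083.

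**Figure D1:**
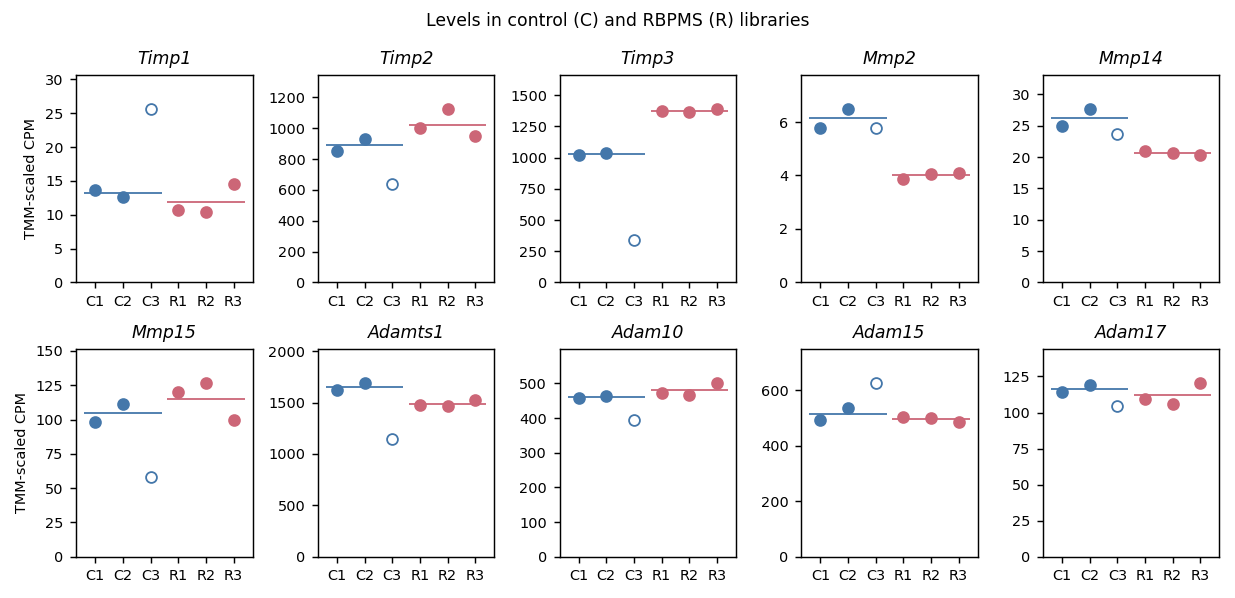
Normalised level (TMM-scaled CPM, linear axis from 0) of the 10 genes in each control (C1 to C3, blue) and RBPMS (R1 to R3, red) library, with control replicate 3 as an open circle. Lines are the mean of control replicates 1 and 2 and the mean of the 3 RBPMS libraries. Timp3 sits at 1365 to 1388 CPM in the RBPMS libraries, above all 3 controls, and Mmp2 and Mmp14 sit below all 3 controls.

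Timp3 was the inhibitor that rose furthest. Timp3 (ENSMUSG00000020044, chromosome 10, 86300372 to 86349506, plus strand, GRCm38) had, in replicate order, control levels of 1019, 1036 and 339.6 CPM and RBPMS levels of 1376, 1365 and 1388 CPM. The RBPMS libraries had an SD of 11.8 CPM (n = 3) and all lay above the controls, and control replicate 3 was far below the other controls. The log2 fold change was 0.42 ± 0.045 (SE) without control replicate 3, with an edgeR adjusted p of 6.5e-06. With all 6 libraries it was 0.79 ± 0.39, with an edgeR adjusted p of 0.587. With 1 more library left out the log2 fold change ran from 0.41 to 0.44, and the largest adjusted p was 1.7e-04. The Timp3 locus lies inside that of Syn3, a neuronal synapsin gene on the opposite strand, and 1733 of its 8144 exon bases (21.3%) are also Syn3 exon. Syn3 had 20 to 31 counts in controls and 45 to 55 with RBPMS, against 7708 to 29346 counts of Timp3, and reads of the shared bases cannot be assigned without strand.

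Timp2, the inhibitor that also helps MMP14 to activate MMP2, rose less. Timp2 (ENSMUSG00000017466, chromosome 11, 118301069 to 118355740, minus strand) had 855, 932 and 639.7 CPM in the controls and 999, 1124 and 951 CPM with RBPMS. The groups did not overlap, but RBPMS replicate 3 and control replicate 2 were close. Timp2 had a log2 fold change of 0.20 ± 0.060 without control replicate 3 (edgeR adjusted p = 0.048) and 0.34 ± 0.17 with all 6 libraries (adjusted p = 0.587). The call is close to the threshold: it was lost when control replicate 1 (0.14, adjusted p = 0.371), RBPMS replicate 1 (0.22, 0.077) or RBPMS replicate 2 (0.13, 0.237) was also left out, and with DESeq2 (0.20, adjusted p = 0.305).

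Timp1, the soluble inhibitor that many cells induce in inflammation, was the lowest of the 3. Timp1 (ENSMUSG00000001131, chromosome X, 20870166 to 20874735, plus strand) had 13.7, 12.7 and 25.6 CPM in the controls and 10.7, 10.5 and 14.5 CPM with RBPMS. Control replicate 3 was highest, RBPMS replicate 3 lay above the other controls, and the groups overlapped. The log2 fold change was -0.15 ± 0.13 without control replicate 3 (edgeR adjusted p = 0.575) and -0.55 ± 0.30 with it (adjusted p = 0.587). Timp1 lies within the Syn1 locus on the opposite strand without sharing exon bases. The fourth inhibitor, Timp4, had at most 10 counts in any library and was not tested.

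Mmp2, the gelatinase that cuts basement-membrane collagen, was the least abundant of the 10 and fell. Mmp2 (ENSMUSG00000031740, chromosome 8, 92827291 to 92853420, plus strand) rested on 92, 105 and 131 counts in the controls, in replicate order, and on 79, 87 and 75 with RBPMS. Normalised, these were 5.78, 6.48 and 5.77 CPM in the controls and 3.86, 4.05 and 4.11 CPM with RBPMS, so that the groups did not overlap and control replicate 3 lay with the other controls. The log2 fold change was -0.61 ± 0.17 without control replicate 3 (edgeR adjusted p = 0.029) and -0.58 ± 0.15 with all 6 libraries (adjusted p = 0.587). The call was lost with DESeq2 (-0.61, adjusted p = 0.098) and in 4 of 5 fits that left out a further library. Dropping a control gave -0.69 (replicate 1, adjusted p = 0.087) and -0.53 (replicate 2, 0.205), and dropping an RBPMS library gave -0.58 (replicate 1, 0.088) and -0.62 (replicate 2, 0.063).

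Mmp14, the membrane-bound activator of MMP2, fell as well. Mmp14 (ENSMUSG00000000957, chromosome 14, 54431612 to 54445364, plus strand) had 24.9, 27.6 and 23.6 CPM in the controls and 21.0, 20.6 and 20.3 CPM with RBPMS. All 3 RBPMS libraries were below all 3 controls. Mmp14 had a log2 fold change of -0.35 ± 0.085 without control replicate 3 (edgeR adjusted p = 0.015) and -0.30 ± 0.11 with all 6 libraries (adjusted p = 0.587). The call was lost when control replicate 2 (-0.27, adjusted p = 0.189) or RBPMS replicate 1 (-0.35, adjusted p = 0.052) was also left out.

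Mmp15, the other membrane-bound form, did not pass the test. Mmp15 (ENSMUSG00000031790, chromosome 8, 95352268 to 95375080, plus strand) had 98.3, 111 and 58.3 CPM in the controls and 119.8, 126 and 99.7 CPM with RBPMS. Control replicate 3 was lowest, and RBPMS replicate 3 fell between control replicates 1 and 2. For Mmp15 the log2 fold change was 0.14 ± 0.074 without control replicate 3 (edgeR adjusted p = 0.296) and 0.37 ± 0.24 with it (adjusted p = 0.590). Of 5 fits with a further library left out, only that without RBPMS replicate 3 passed (0.24, adjusted p = 0.017). The value was 0.05 without control replicate 1 (adjusted p = 0.852), 0.23 without control replicate 2 (0.188) and 0.07 without RBPMS replicate 2 (0.682).

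Adamts1, a secreted protease that cuts proteoglycans and is known as an inhibitor of angiogenesis, was the most abundant of the 7 proteases. Adamts1 (ENSMUSG00000022893, chromosome 16, 85793827 to 85803113, minus strand) had 1622, 1685 and 1147 CPM in the controls and 1475, 1468 and 1520.0 CPM with RBPMS. The RBPMS libraries lay below control replicates 1 and 2 and above control replicate 3. The log2 fold change was -0.15 ± 0.046 without control replicate 3, which missed the threshold (edgeR adjusted p = 0.053). It passed with limma-voom (-0.15, adjusted p = 0.018) and DESeq2 (-0.15, adjusted p = 0.0066). In edgeR it missed with DESeq2 size factors (adjusted p = 0.054) or the replicate number as a block (0.095). It passed in edgeR with total library size (adjusted p = 0.036), no low-count filter (0.0078), a gene-length trend removed (0.031) and without RBPMS replicate 3 (-0.16, 0.045). The other 4 fits with a further library left out did not pass, with values of -0.18 to -0.12 and adjusted p-values of 0.071 to 0.230 in edgeR. Including control replicate 3, it was 0.0032 ± 0.17 (edgeR adjusted p = 0.993). Vcan, which encodes versican, had at most 5 counts in any library.

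The ADAM sheddases were close to their control levels. Adam10 (ENSMUSG00000054693, chromosome 9, 70678997 to 70780229, plus strand), which cuts Notch receptors and VE-cadherin, had 459, 465 and 393 CPM in the controls and 473, 468 and 499.8 CPM with RBPMS. The RBPMS libraries were all above the controls, by a margin of 1.04-fold on average over control replicates 1 and 2, and the log2 fold change of 0.06 ± 0.047 did not pass the test (edgeR adjusted p = 0.530). With all 6 libraries it was 0.13 ± 0.12 (adjusted p = 0.629).

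Adam15 (ENSMUSG00000028041, chromosome 3, 89338542 to 89349996, minus strand), a membrane protease and adhesion protein of endothelial cells, had 493, 536 and 625 CPM in the controls and 505, 501 and 486 CPM with RBPMS. The groups overlapped, and control replicate 3 was highest. For Adam15 the log2 fold change was -0.05 ± 0.048 without control replicate 3 (edgeR adjusted p = 0.639) and -0.15 ± 0.13 with it (adjusted p = 0.615). An antisense gene, 4731419I09Rik, covers 20.6% of its exon bases but had at most 26 counts.

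Adam17 (ENSMUSG00000052593, chromosome 12, 21323509 to 21373632, minus strand), the enzyme that releases tumour necrosis factor and its receptors, had 114, 119 and 105 CPM in the controls and 109, 106 and 120.1 CPM with RBPMS. The groups overlapped. For Adam17 the log2 fold change was -0.06 ± 0.055 without control replicate 3 (edgeR adjusted p = 0.602) and -0.01 ± 0.11 with it (adjusted p = 0.964). Iah1 on the opposite strand shares 4.35% of its exon bases and had 265, 291 and 640 counts in the controls and 306, 339 and 235 with RBPMS, against 1817 to 2380 counts of Adam17.

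**Figure D2:**
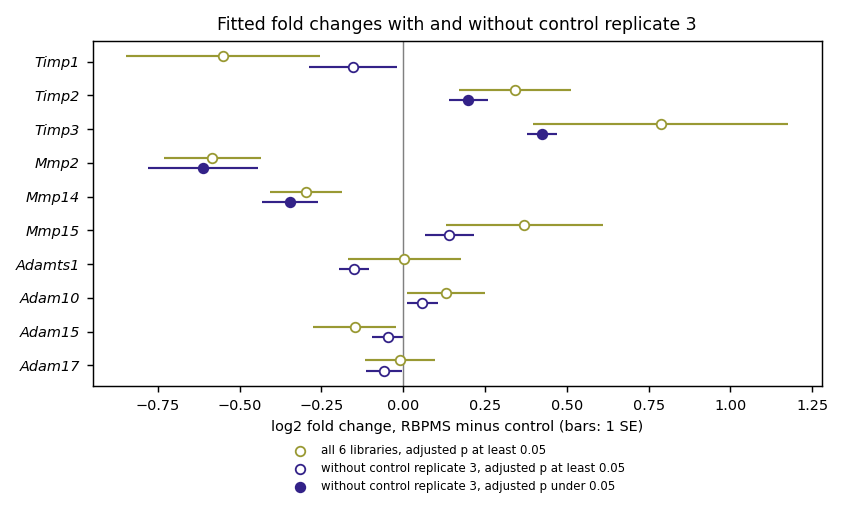
Log2 fold change, RBPMS minus control, of the 10 genes from edgeR with all 6 libraries (olive) and without control replicate 3 (dark blue). Bars are 1 SE and filled points have an adjusted p under 0.05. Timp2, Timp3, Mmp2 and Mmp14 are filled without control replicate 3, and no gene is filled with all 6 libraries.

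Separation of the groups was common among these genes and among all genes. Across all 6 libraries 5 of 10 genes had groups that did not overlap, with Timp2, Timp3 and Adam10 higher and Mmp2 and Mmp14 lower, against 24.7% of all tested genes. Without control replicate 3 this held for 6 of 10, Adamts1 being lower in addition, against 37.4%.

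Control replicate 3, which stood apart across all genes, lay outside the range of the other 5 libraries for 8 of the 10 genes. The same share over all tested genes is not given here, so the count is not particular to these genes. This library was highest for Timp1 and Adam15, and lowest for Timp2, Timp3, Mmp15, Adamts1, Adam10 and Adam17. Against the mean of control replicates 1 and 2 it differed on the log2 scale (0.5 CPM added) by 0.93 for Timp1, the shortest of the 10 at 888 bases, and by -1.60 for Timp3, the longest at 8144 bases. These values lie at the 94.8th and 1.73th percentile of all tested genes. The median over all tested genes was 0.51 in the 20% with the shortest annotated length and -0.52 in the 20% with the longest. Mmp2 (-0.08), Mmp14 (-0.15) and Adam17 (-0.15) differed least, and for Mmp2 and Mmp14 the fold change was of similar size with and without this library. With a trend on gene length removed from each library the log2 fold changes over all 6 libraries were 0.71 ± 0.29 for Timp3 and -0.38 ± 0.22 for Timp1, with adjusted p-values of 0.50 and 0.508 in edgeR.

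**Figure D3:**
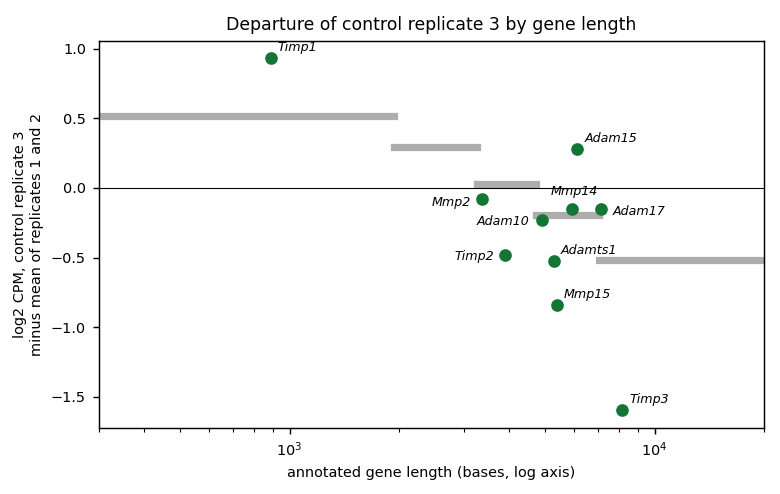
Difference of control replicate 3 from the mean of control replicates 1 and 2 (log2 CPM) against annotated gene length (log axis) for the 10 genes. Grey bars are the medians of all tested genes in 5 length classes of equal size, drawn only between the axis limits. Timp1 lies at 0.93 and Timp3 at -1.60, both farther from 0 than the median of their length class.

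Levels of different genes were scaled by annotated gene length. That length may differ from the length of the transcripts expressed, so the order and the ratio below depend on the annotation. In CPM per kilobase, Adamts1 was highest in the controls with 280.0 ± 55.5 (SD, n = 3), followed by Timp2 with 208 ± 38.9, and the ranges of these neighbours overlapped. Timp3 (98.0 ± 48.8), Adam15 (89.7, range 80.2 to 102) and Adam10 (89.3 ± 8.03) came next with overlapping ranges. A lower group of Timp1 (19.5 ± 8.10), Mmp15 (16.5 ± 5.11) and Adam17 (15.8 ± 1.00) also overlapped, and Mmp14 (4.26 ± 0.35) and Mmp2 (1.78 ± 0.12) were below them with no overlap.

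With RBPMS the order was Adamts1 (281 ± 5.33), Timp2 (263 ± 23.0), Timp3 (169 ± 1.45), Adam10 (97.8 ± 3.49), Adam15 (80.9 ± 1.60), Mmp15 (21.4 ± 2.57), Adam17 (15.6 ± 1.03), Timp1 (13.4 ± 2.58), Mmp14 (3.47 ± 0.058) and Mmp2 (1.19 ± 0.038). The ranges of Adamts1 and Timp2 overlapped there, as did those of Adam17 and Timp1, and no other neighbours did.

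The summed inhibitor level stood higher against the summed protease level in the RBPMS libraries. The 3 TIMPs together had 360.1, 381 and 235 CPM per kilobase in the controls and 437, 468 and 431 with RBPMS. The 7 proteases had 519, 543 and 429 in the controls and 499, 497 and 507 with RBPMS. Their ratio was 0.693, 0.700 and 0.547 in the controls and 0.877, 0.942 and 0.849 with RBPMS. As a score over chosen genes this ratio was not tested. Timp2 supplied 61.0% to 70.0% of the TIMP sum in controls and 56.6% to 61.7% with RBPMS, and Timp3 17.8% to 34.7% and 35.8% to 39.6%. Adamts1, which was not called, supplied 50.4% to 58.9% of the protease sum in controls and 55.8% to 56.5% with RBPMS. The called Mmp14 (means of 4.26 and 3.47 CPM per kilobase) and Mmp2 (1.78 and 1.19) added little to that sum. These are levels of RNA, and fewer cells of a kind and less RNA per cell cannot be told apart in such bulk samples.

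**Figure D4:**
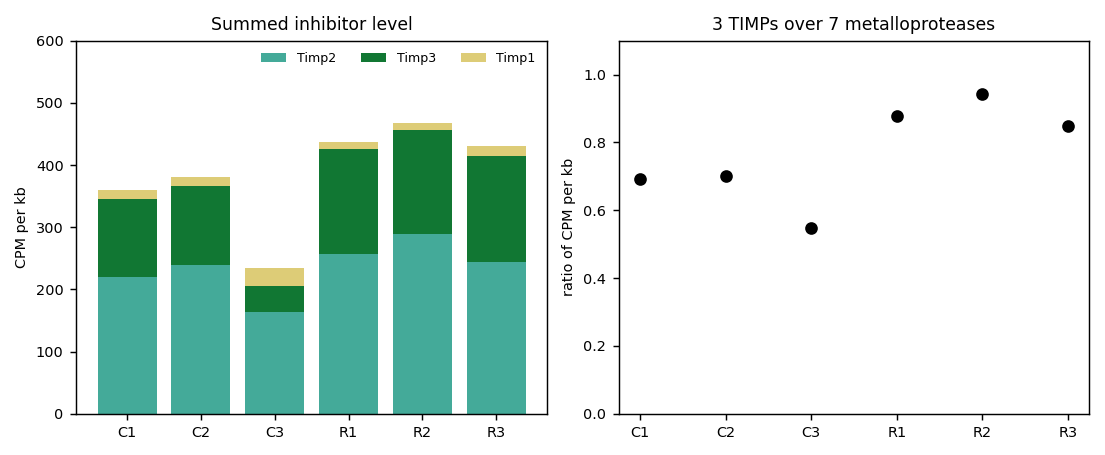
Left, summed level of Timp2, Timp3 and Timp1 in CPM per kilobase in each control (C1 to C3) and RBPMS (R1 to R3) library, as stacked bars from 0. Right, ratio of the TIMP sum to the sum of the 7 proteases. The ratio is 0.547 to 0.700 in controls and 0.849 to 0.942 with RBPMS.

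Around these genes, 9 lists with 158 genes of matrix proteolysis, the 10 included, were described in the same fit without control replicate 3. The lists were chosen with earlier results of these data known, so the shares called are no test of an excess. Of 108 tested genes 10 rose and 21 fell, against 3.81% and 3.43% of all tested genes, and their median log2 fold change was -0.01 against -0.0025. With all 6 libraries 0 were called in edgeR, 14 of 106 had an unadjusted p under 0.05, and the median was 0.05. Of the other genes 50 were tested in neither fit, 18 of them without a count in any library, and the highest level among the 50 was 0.70 CPM. Mmp9, the second gelatinase, was among these with at most 9 counts.

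Of 10 tested matrix metalloproteinases 4 fell and 0 rose (median log2 fold change -0.26, against 0.08 with all 6 libraries). Besides Mmp2 and Mmp14 these were Mmp3 and Mmp19. Mmp3, stromelysin, rested on 48, 30 and 61 counts in the controls, in replicate order, and on 23, 21 and 17 with RBPMS. DESeq2 gave no adjusted p for Mmp3 without control replicate 3. Its level fell from 3.02 and 1.85 CPM in control replicates 1 and 2 to 1.12, 0.98 and 0.93 CPM, with 2.69 CPM in control replicate 3. The log2 fold change was -1.26 ± 0.31 (edgeR adjusted p = 0.015). Without control replicate 1 it was -0.87 with an adjusted p of 0.330. Mmp19 had -0.32 ± 0.098 (adjusted p = 0.0496), which no fit with a further library left out called (adjusted p 0.0503 to 0.239). With all 6 libraries the log2 fold changes were -1.31 for Mmp3 and -0.24 for Mmp19.

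Among 7 tested ADAM and 10 tested ADAMTS proteases, 1 and 2 fell and none rose, with medians of -0.05 and -0.0055, against 0.12 and 0.22 with all 6 libraries. Adam19, a protease that cuts neuregulin, fell (log2 fold change -0.28 ± 0.056, adjusted p = 0.0035), with 35.8 CPM in control replicate 3 against 88.6 in the other controls and 73.0 with RBPMS, and lost the call without control replicate 1 (-0.21, adjusted p = 0.142). Adamts17 fell (-0.30 ± 0.077, adjusted p = 0.019) and lost the call without control replicate 2 (-0.18, adjusted p = 0.316) or RBPMS replicate 3. Adamts12 fell by 0.17 on the log2 scale (adjusted p = 0.048), a call lost in 5 of 5 fits with a further library left out. Over all 6 libraries the log2 fold changes of these 3 genes were 0.04, -0.0022 and 0.17.

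Of 6 tested genes in the inhibitor list, which also holds Pcolce, only Timp2 and Timp3 were called. The list's median was -0.04, against 0.0018 with all 6 libraries. The membrane-anchored inhibitor Reck had 27.4 CPM in control replicates 1 and 2 and 28.9 CPM with RBPMS (log2 fold change 0.08 ± 0.085, adjusted p = 0.656). Pcolce, which promotes procollagen processing, had 6.88 and 5.66 CPM (-0.28 ± 0.15, adjusted p = 0.306). Over all 6 libraries Reck had 0.22 and Pcolce -0.48.

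Of 11 tested partners and maturation enzymes of ADAM10 and ADAM17, 1 rose and 1 fell, with a median of 0.04, against 0.16 with all 6 libraries. Frmd8, which stabilises the complex of ADAM17 with its rhomboid carriers, rose from 79.4 to 94.8 CPM (log2 fold change 0.26 ± 0.058, edgeR adjusted p = 0.0080), and without control replicate 1 it was 0.17 with an adjusted p of 0.231. Rhbdf1, one of those carriers, fell (-0.18 ± 0.052, adjusted p = 0.038), a call lost in 5 of 5 fits with a further library left out. Over all 6 libraries the values were 0.30 for Frmd8 and -0.07 for Rhbdf1.

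In the plasminogen list 1 of 9 tested genes rose and 2 fell (median -0.03, against -0.23 with all 6 libraries). S100a10, part of a surface receptor for plasminogen, fell from a mean of 143 CPM to 121 CPM (-0.25 ± 0.048 on the log2 scale, adjusted p = 0.0026), while control replicate 3 had 303 CPM. Plat, the tissue plasminogen activator, had at most 17.5 CPM in the 3 controls and at least 18.0 CPM with RBPMS, and rose (0.44 ± 0.12, adjusted p = 0.027). The call was lost without control replicate 1 (0.31, adjusted p = 0.301), RBPMS replicate 1 or RBPMS replicate 2. Serpinf1, the serpin PEDF, fell (-0.54 ± 0.14, adjusted p = 0.023) and kept its call in 1 of 5 such fits. The values with all 6 libraries were -0.70 for S100a10, 0.50 for Plat and -0.64 for Serpinf1.

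Of 10 tested cathepsins and cystatins 3 rose and 2 fell (median 0.09, against -0.15 with all 6 libraries). The lysosomal proteases Ctsd and Ctsa rose, from 1293 to 1769.8 CPM (0.45 ± 0.060 on the log2 scale, adjusted p = 6.4e-05) and from 268 to 353 CPM (0.40 ± 0.054, adjusted p = 8.5e-05). Control replicate 3 had 2187 CPM of Ctsd, above the RBPMS libraries, and 327 CPM of Ctsa, below them. Cst3, the secreted inhibitor cystatin C, fell from 222 to 185 CPM (-0.26 ± 0.049, adjusted p = 0.0019), with 450.4 CPM in control replicate 3, and lost the call without control replicate 2 (-0.19, adjusted p = 0.067). Ctsl rose (0.18 ± 0.045, adjusted p = 0.016) and lost the call in 3 of 5 fits with a further library left out, while over all 6 libraries it had -0.06. Ctsd, Ctsa and Cst3 had 0.15, 0.29 and -0.69 there.

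Of 26 tested genes that encode proteins shed by ADAM10 or ADAM17, the RNA of 2 rose and of 3 fell (median -0.05, against 0.04 with all 6 libraries). Shedding itself was not measured. The Notch ligand gene Jag1 rose from 138 to 193 CPM (0.48 ± 0.048, edgeR adjusted p = 2.8e-06, held in 5 of 5 fits with a further library left out), with 90.7 CPM in control replicate 3. So did Efnb2, the ephrin of arterial endothelium, from 140.3 to 158 CPM (0.17 ± 0.051 on the log2 scale, adjusted p = 0.043). Efnb2 lost its call without control replicate 1 (0.10, adjusted p = 0.471), RBPMS replicate 1 or RBPMS replicate 2. Procr, the endothelial protein C receptor, fell from 350 to 313 CPM (-0.16 ± 0.044, adjusted p = 0.029) and kept its call in 1 of 5 such fits. The VEGF receptor gene Kdr fell from 2726 to 2359 CPM (-0.21 ± 0.049, adjusted p = 0.011), with 1692 CPM in control replicate 3, and lost the call in 2 of 5 such fits. Including control replicate 3, the values were 0.66 for Jag1, 0.30 for Efnb2, -0.28 for Procr and -0.01 for Kdr.

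Among 19 tested matrix substrates 1 rose and 6 fell, with a median of -0.15, against 0.10 with all 6 libraries. The elastin gene Eln fell from 80.8 to 38.2 CPM (log2 fold change -1.08 ± 0.070, edgeR adjusted p = 7.4e-09), the fibronectin gene Fn1 from 449 to 303 CPM (-0.56 ± 0.050, adjusted p = 6.2e-07) and the collagen gene Col5a1 from 90.5 to 67.5 CPM (-0.42 ± 0.066, adjusted p = 4.3e-04). The laminin gene Lamc1 rose from 572 to 666 CPM (0.22 ± 0.045, adjusted p = 0.0035). These 4 calls held in 5 of 5 fits with a further library left out. Control replicate 3 had 67.6, 124, 47.9 and 185 CPM of the 4 genes, so that for Fn1 and Col5a1 the groups overlapped over all 6 libraries. Eln, Fn1, Col5a1 and Lamc1 had log2 fold changes of -0.998, -0.17, -0.17 and 0.59 there.

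**Figure D5:**
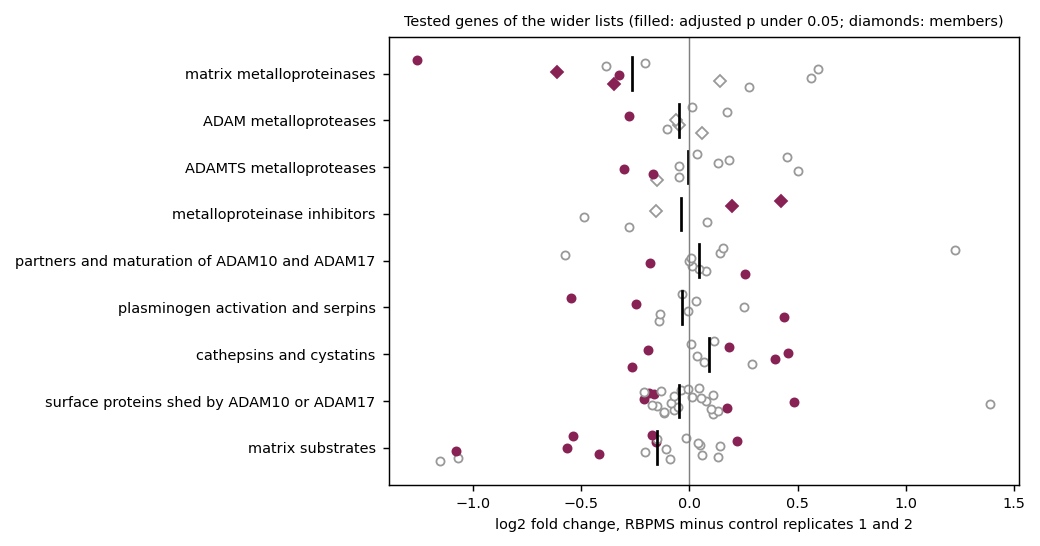
Log2 fold change without control replicate 3 of the tested genes of the 9 lists. Filled points have an adjusted p under 0.05 in edgeR, diamonds are the 10 genes of the main set, and black lines are list medians. Filled points number 10 above and 21 below 0, with 4 of the matrix metalloproteinases below 0.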

How the data were processed

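RNA was sequenced from 6 libraries (3 control, 3 RBPMS). Per the labels' protocols, RNA was Trizol-extracted and libraries were made from total RNA after ribosomal RNA removal. The authors deposited whole-number counts per gene. Per the submitters' processing notes FastQC, Salmon and mm10 were used, while the sources used here do not say how the counts were made whole or whether strand was used.

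Counts were tested as deposited in R 4.3.3 with edgeR 4.0.16 (low counts removed with filterByExpr, TMM scaling, quasi-likelihood fit with group alone, Benjamini-Hochberg adjustment over all tested genes, threshold 0.05). An SE is the fold change over the square root of F. DESeq2 1.42.0, limma 3.58.1, other scalings, no low-count filter, a length trend as offset (loess span 0.3), the replicate number as a block and leaving out each library were alternatives. The code was tested on simulated data.

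The 10 genes and all lists were chosen with earlier results of these data known. Of each list up to 4 called genes by smallest adjusted p were to be named, or the 2 most abundant. Not every gene the rule allows is named, and Timp4, Mmp9, Vcan, the overlapping genes and the single marker genes were named after their values were seen. Ccn2 was matched to Ctgf. The coding stretches were found by motif in the longest annotated coding sequence of each gene. Protein sequences were not used here.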

Additional observations from a re-analysis of the deposited data

How the results depend on the processing

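With all 6 libraries, 0 genes were called in each direction by edgeR. Without a filter it called 4 higher and 1 lower, with the length offset 2 and 1, and DESeq2 called 41 and 15; under each of these 1 gene of the wider lists was called lower and 0 of the 10 genes were called. Leaving out 1 library gave 0 to 538 higher and 0 to 484 lower over all genes, 0 to 2 and 0 to 2 among the 10, and 0 to 10 and 0 to 21 in the wider lists, the upper values all being those without control replicate 3. Without control replicate 3 the main counts were 538 and 484, and with a further library left out 221 to 591 and 194 to 426. Where that library was a control, the lone control was assumed to vary like the RBPMS group. Among the 10 these fits called 1 to 3 higher and 0 to 3 lower, and in the wider lists 5 to 15 and 8 to 15. Of the 10, 1 was called higher, not 2, with DESeq2 size factors, total library size, the length offset or DESeq2, Timp2 being lost each time. The DESeq2 test also lost Mmp2. Adamts1 was gained as lower with the DESeq2 test, limma-voom, total library size, no filter and the length offset. The difference in the TIMP to protease ratio was 0.24 with all 6 libraries (0.19 to 0.27 with 1 left out) and 0.19 without control replicate 3 (0.17 to 0.21). The cause of these shifts was not tested.

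With the replicate number as a block, 0 genes were called with all 6 libraries. Without control replicate 3 the block gave 3 of the 10 higher and 1 lower, against 2 and 2, with Mmp15 gained (0.23, adjusted p = 0.011) and Mmp2 lost (-0.63, adjusted p = 0.063), and 12 wider genes lower, against 21. Deviations from the group means correlated at 0.051, -0.024 and 0.015 for same-numbered libraries and at -0.076 to 0.077 for the other pairs. The control mean included control replicate 3, which stood apart, so these correlations cannot decide whether the numbers pair the samples. The main fit did not use the numbers.

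Of the genes whose sign reversed with all 6 libraries, Fn1, Ctsd, Col5a1, Adam19, Kdr, Ctsl, Adamts17, Adamts12 and Rhbdf1 were called without control replicate 3. Adamts12 had -0.17 without that library (edgeR adjusted p = 0.048) and 0.17 with it. With all 6 libraries in the fit edgeR called 0 genes. Of the reversed values only those of Adam19 (-0.28, edgeR adjusted p = 0.0035), Adamts12 and Ctsl (0.18, 0.016) passed, each on leaving out control replicate 3. Adamts17 (-0.0022) became 2.4e-04 with total library size, 0.10 in limma-voom and 0.087 with the block. Kdr (-0.01) became 0.012 and 0.019, and Fn1 (-0.17) 0.026 and 0.035, in limma-voom and with the block. Adamts1 (0.0032) became -0.0016 without a filter and -0.056 with the length offset, which gave -0.034 for Adam19 (0.04). With 1 library left out the ranges were -0.15 to 0.10 for Adamts1, -0.066 to 0.030 for Adam17, -0.28 to 0.28 for Adam19, -0.30 to 0.26 for Adamts17, -0.17 to 0.40 for Adamts12, -0.18 to 0.0029 for Rhbdf1, -0.014 to 0.45 for Ctsd, -0.16 to 0.18 for Ctsl, -0.21 to 0.11 for Kdr, -0.56 to 0.15 for Fn1 and -0.42 to 0.021 for Col5a1. Without control replicate 3 and a further library they were -0.11 to 0.015 for Adam15 and -0.0050 to 0.17 for Reck. Mmp2 rests on 75 to 131 counts a library and Mmp3 on 17 to 61, which limits their precision.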
